A study of Mus musculus with 8 samples.

Results

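The respiratory chain and the ATP synthase of the inner mitochondrial membrane were examined through the nuclear genes that encode their subunits, in sorted mouse brain endothelial cells with and without floxed Yap and Taz. A gene was taken as a member when its symbol fitted the pattern for a complex. The patterns were Nduf followed by a, b, c, s or v and a number (complex I) and Sdha, Sdhb, Sdhc or Sdhd (complex II). The others were Uqcr (complex III), Cox4 to Cox8 (complex IV) and Atp5 (complex V). The patterns also take in Atp5s and Atp5sl, which lie outside the enzyme, and place Ndufa4, now regarded as a subunit of complex IV, in complex I. The rule used symbols only and no measured value. It found 84 genes among the 24394 symbols shared by all libraries, of which 37 were assigned to complex I, 4 to complex II, 8 to complex III, 18 to complex IV and 17 to complex V. All 84 were matched to GENCODE, and they lie on 19 chromosomes, with 3 of them on X.

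Complexes I and II pass electrons from NADH and succinate to ubiquinone, complex III passes them on to cytochrome c, and complex IV passes them to oxygen. Complexes I, III and IV pump protons as they do so, and complex V, the ATP synthase, uses the returning protons to make ATP. Complexes I, III, IV and V also contain subunits encoded in mitochondrial DNA, which are not analysed here. Endothelial cells are known for drawing much of their ATP from glycolysis, while brain endothelium is known for a comparatively high mitochondrial content.

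The study compared 4 libraries of wild-type mice (WT 1 to 4) with 4 libraries of mice carrying VE-cadherin-CreERT2 with Yapf/f and Tazf/f (YT-ECKO 1 to 4), all on C57BL/6J and all at postnatal day 8, with endothelial cells of the brain isolated by flow cytometry. The Cre is driven by the VE-cadherin promoter, active in endothelium, and is fused to a receptor domain that responds to tamoxifen, whose dosing the sources used here do not give. The WT mice are labelled wild type only, so an effect of the Cre, of the floxed alleles before deletion or of dosing cannot be told apart from deletion of Yap and Taz. The labels do not say whether the libraries of a group came from separate mice, and p-values therefore measure the spread between these libraries, which may be technical.

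Values are reads after scaling of every library to a common size, called scaled reads, and a listed 0 is kept at 0. The depth implied by the spacing of low values was 6.75 to 16.8 M reads, and 7538 to 9720 genes were above 0 in a library. The targeted genes followed the labels: Wwtr1, which encodes Taz, averaged 6633 scaled reads in WT and 1335 in YT-ECKO, and Yap1 averaged 1964 and 327, with no overlap between groups for either gene. The 10 endothelial markers checked were above 0 in every library and summed to 8220 to 10760 CPM (scaled reads relative to the library total). Mural markers summed to 15.0 to 177 CPM, microglial markers to 0 to 15.0 CPM, astrocyte markers to 48.1 to 116 CPM and oligodendrocyte lineage markers to 0 to 111 CPM. Neuronal markers summed to 0.546 to 32.3 CPM in WT (mean 11.1) and 1.69 to 183 CPM in YT-ECKO (mean 71.6), with overlapping groups, and their part in the results was not tested. Hemoglobin and other erythroid markers summed to 1286 to 3501 CPM in WT (mean 2125) and 1256 to 4669 CPM in YT-ECKO (mean 3350), with overlapping groups. The 5 tested erythroid markers were all estimated higher in YT-ECKO, though Hba-a1 and Hba-a2 had identical values. Mural markers averaged 101 CPM in WT and 72.7 CPM in YT-ECKO, and the 5 tested were all estimated lower, as were the 3 tested astrocyte markers. None of these markers was called, and their part in the results was not tested. In bulk RNA, fewer cells of a type and less RNA per cell cannot be told apart.

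Subunits of the respiratory chain were among the steadily detected transcripts of these cells. Of the 84 members, 76 passed the filter on low values (10 or more scaled reads in 4 or more libraries), and 70 of these 76 (92.1%) were above 0 in all 8 libraries, against 55.7% of all 8706 genes that passed. The median level of the 76 was 1063 scaled reads, against 360 over all tested genes. Their transcripts were short, with a median length of 746 bases against 2760. Levels are compared between genes per kilobase of the median GENCODE transcript; if the library kit reads only transcript ends, as the labels do not settle, such values understate long transcripts. On that scale the median was 2877 scaled reads per kb for complex IV, 2224 for complex III, 1238 for complex V, 707 for complex I and 465 for complex II. Within complex I the levels ran from 146 to 10924 scaled reads per kb.

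Each of the 8 members that did not pass was a paralogue of a member that was well detected in both groups. Cox4i2, Cox6a2, Cox6b2, Cox7b2, Cox8b and Cox8c were listed at 0 in all 8 libraries, as plotted for the paralogue sets. Cox6a2, Cox7a1 and Cox8b are known as isoforms of heart and skeletal muscle, and Cox4i2 as an isoform of lung that responds to oxygen. Cox7a1 was above 0 only in YT-ECKO 2, at 27.7 scaled reads. Ndufa4l2, a hypoxia-responsive relative of Ndufa4, was above 0 only in WT 2, at 4.36 scaled reads, and in YT-ECKO 4, at 188. Ndufa4 itself, named for complex I and now regarded as a subunit of complex IV, had 3141, 811, 816 and 5131 scaled reads in WT 1 to 4 and 2425, 1619, 2103 and 1951 in YT-ECKO 1 to 4. Its lowest and highest libraries were both WT, and its difference of 0.11 ± 0.48 (log2 difference ± SE, YT-ECKO minus WT) was well inside the spread.

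**Figure D1:**
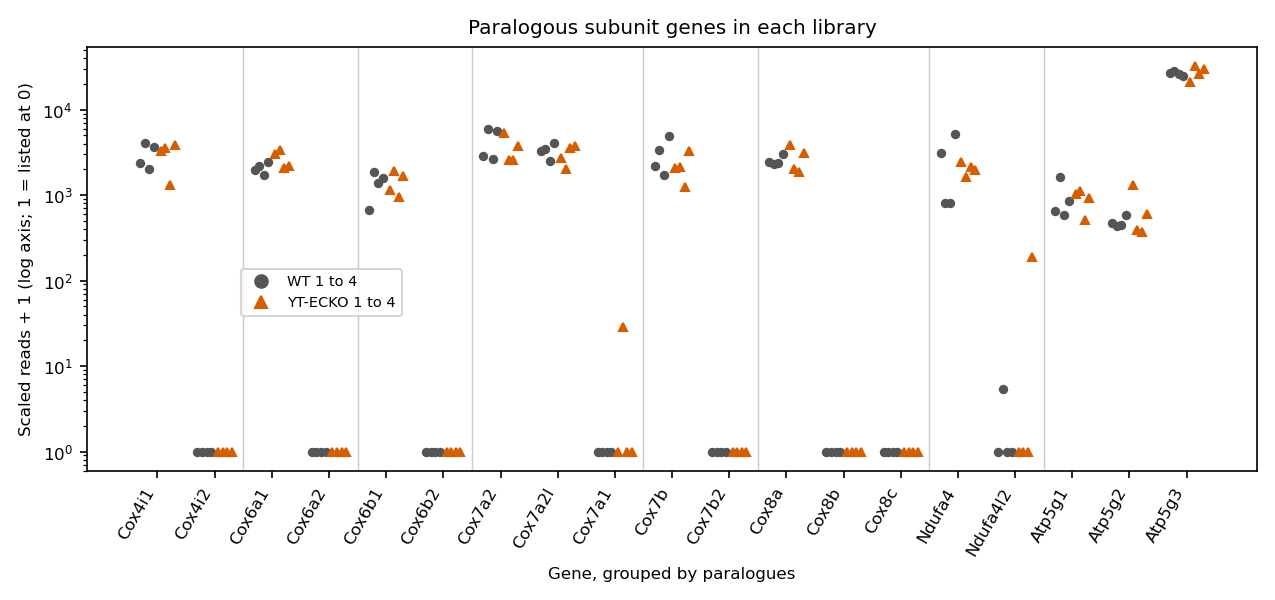
Scaled reads plus 1 (log axis) of 19 paralogous subunit genes in each library; circles are WT 1 to 4, triangles are YT-ECKO 1 to 4, and a value of 1 means listed at 0. Of the genes drawn, 6 sit at 0 in all 8 libraries, and Atp5g3 lies above every other gene drawn, at 21145 to 32138 scaled reads.

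The paralogues of broad expression were present in both groups with overlapping values. Cox4i1, the large regulatory subunit of complex IV, had 2384, 4076, 2010 and 3653 scaled reads in WT and 3256, 3576, 1310 and 3851 in YT-ECKO, a log2 difference of -0.06 ± 0.38. Cox7a2 differed by -0.23 ± 0.35, Cox7a2l by -0.15 ± 0.33, Cox8a by 0.04 ± 0.35 and Cox6b1 by 0.07 ± 0.42. Every one of these 95% intervals included 0. Cox7a2 had the highest level per length of complex IV, 5918 scaled reads per kb.

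Of the 3 genes for the c subunit of the ATP synthase, whose ring turns as protons pass, Atp5g3 gave nearly all the reads. Atp5g1, Atp5g2 and Atp5g3 are known to encode the same mature protein behind different import sequences. Atp5g3 (chromosome 2, 73908447 to 73911326, minus strand, GRCm38) had 26950, 28665, 26359 and 24902 scaled reads in WT 1 to 4 and 21145, 32138, 26068 and 29635 in YT-ECKO 1 to 4. Per length it was the most abundant member, at 37554 scaled reads per kb, and it held 14.6% to 27.8% of the summed reads of all 84 members in a library. The group means were 26719 ± 1557 and 27246 ± 4770 (SD, n = 4 each), a log2 difference of 0.01 with a 95% interval of -0.40 to 0.42. Atp5g3 also had the smallest spread of any tested member, with a within-group SD of 13.1% of its mean.

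Atp5g1 (chromosome 11, 96068852 to 96075670, minus strand) had 655, 1642, 580 and 855 scaled reads in WT and 1031, 1101, 507 and 913 in YT-ECKO. Atp5g2 (chromosome 15, 102662864 to 102672352, minus strand) had 471, 437, 440 and 584 in WT and 1310, 387, 368 and 604 in YT-ECKO. Neither differed beyond its spread, with log2 differences of -0.01 ± 0.46 and 0.24 ± 0.51. Annotated transcripts of Atp5g1 range from 596 to 4715 bases, which makes its level per length uncertain. With the length of the shortest model for Atp5g1 and Atp5g2 and of the longest for Atp5g3, the level of Atp5g3 per kb was still at least 14.4 times that of Atp5g1 and 9.85 times that of Atp5g2 in every library.

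Genes this alike could exchange reads if they shared long stretches, so the last 228 bases of each coding sequence, 75 codons and the stop codon that hold the mature c subunit, are shown with capitals at bases that differ from Atp5g3 (GENCODE M21, GRCm38).
Atp5g3: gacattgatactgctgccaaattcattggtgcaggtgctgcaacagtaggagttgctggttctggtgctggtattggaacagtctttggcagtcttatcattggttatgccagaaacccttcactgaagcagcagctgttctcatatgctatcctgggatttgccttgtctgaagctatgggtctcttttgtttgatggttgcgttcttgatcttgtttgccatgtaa
Atp5g1: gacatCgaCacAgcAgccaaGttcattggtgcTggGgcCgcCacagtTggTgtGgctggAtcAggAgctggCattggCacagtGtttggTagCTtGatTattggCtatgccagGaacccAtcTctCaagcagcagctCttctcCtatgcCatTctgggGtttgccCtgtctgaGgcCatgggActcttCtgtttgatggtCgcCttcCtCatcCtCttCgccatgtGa
Atp5g2: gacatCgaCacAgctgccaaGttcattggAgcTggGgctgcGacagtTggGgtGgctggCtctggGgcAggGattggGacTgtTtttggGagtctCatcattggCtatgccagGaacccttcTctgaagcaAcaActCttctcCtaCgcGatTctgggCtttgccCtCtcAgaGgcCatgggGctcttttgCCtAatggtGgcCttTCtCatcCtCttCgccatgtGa
Atp5g1 differed from Atp5g3 at 46 of the 228 bases, 41 of them at the third base of a codon, and the longest run without a difference was 11 bases. Atp5g2 differed at 49 bases, 44 of them at the third base of a codon, with a longest identical run of 8 bases. The stretch was therefore 79.8% and 78.5% identical to Atp5g3 in DNA. Only this coding stretch was compared, so it does not bear on reads from other parts of the transcripts, such as the untranslated ends. How the authors treated reads that fit several genes is not stated in these sources. GENCODE lists pseudogenes named after 4 other members, 1 each for Atp5c1 and Atp5k and 2 each for Atp5l and Uqcrh. The values of these members could hold or lose reads from the copies. Copies that do not carry a member's symbol were not counted, so other members could be affected too.

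No member passed the test for a difference between YT-ECKO and WT. By limma on log2(scaled reads + 128), with Benjamini-Hochberg adjustment over all 8706 tested genes and a threshold of 0.05, 0 of the 76 members were called, against a background of 3 genes (0.0345%), all 3 lower in YT-ECKO and so 0% higher. The voom alternative, on reads rebuilt from the spacing of the values, also called 0 members. At an unadjusted p under 0.05 limma counted 1 member, Atp5sl, against 5.47% of all tested genes, and voom counted 1. No member had groups without overlap, against 3.4% of all tested genes. The smallest adjusted p of a member was 0.823 in limma. The smallest two-sided exact permutation p of a member was 0.0857, where 4 against 4 libraries allow 0.0286.

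Estimates for the members were more often below 0 than above it, as they were for all tested genes. Of the 76 members, 52 were estimated lower and 24 higher, so that 68.4% lay below 0 against 56.9% of all tested genes, and the median log2 difference was -0.15 against -0.09. The split depended on the scaling: with libraries scaled to the upper quartile of genes above 0, 66 were lower and 10 higher (86.8% against 67.3% of all genes), and the median was -0.32 against -0.22. It also depended on single libraries. Without WT 4 the split was 40 to 35 and the median -0.02, without YT-ECKO 2 the median was -0.07, without YT-ECKO 3 it was -0.08 and without WT 3 it was -0.24.

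The intervals give the size of difference these data leave room for. For 24 of the 76 members (31.6%) the 95% interval lay within 1 log2 unit of 0, against 12.5% of all tested genes. Among genes that averaged 1000 scaled reads or more, this held for 21 of 39 members and for 36.7% of all genes of that level. The median distance from estimate to interval bound was 0.94 log2 units for members and 1.10 for all genes. For the other 52 members the interval reached beyond 1 log2 unit in at least 1 direction, so a difference of that size could not be bounded with 4 libraries a group.

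**Figure D2:**
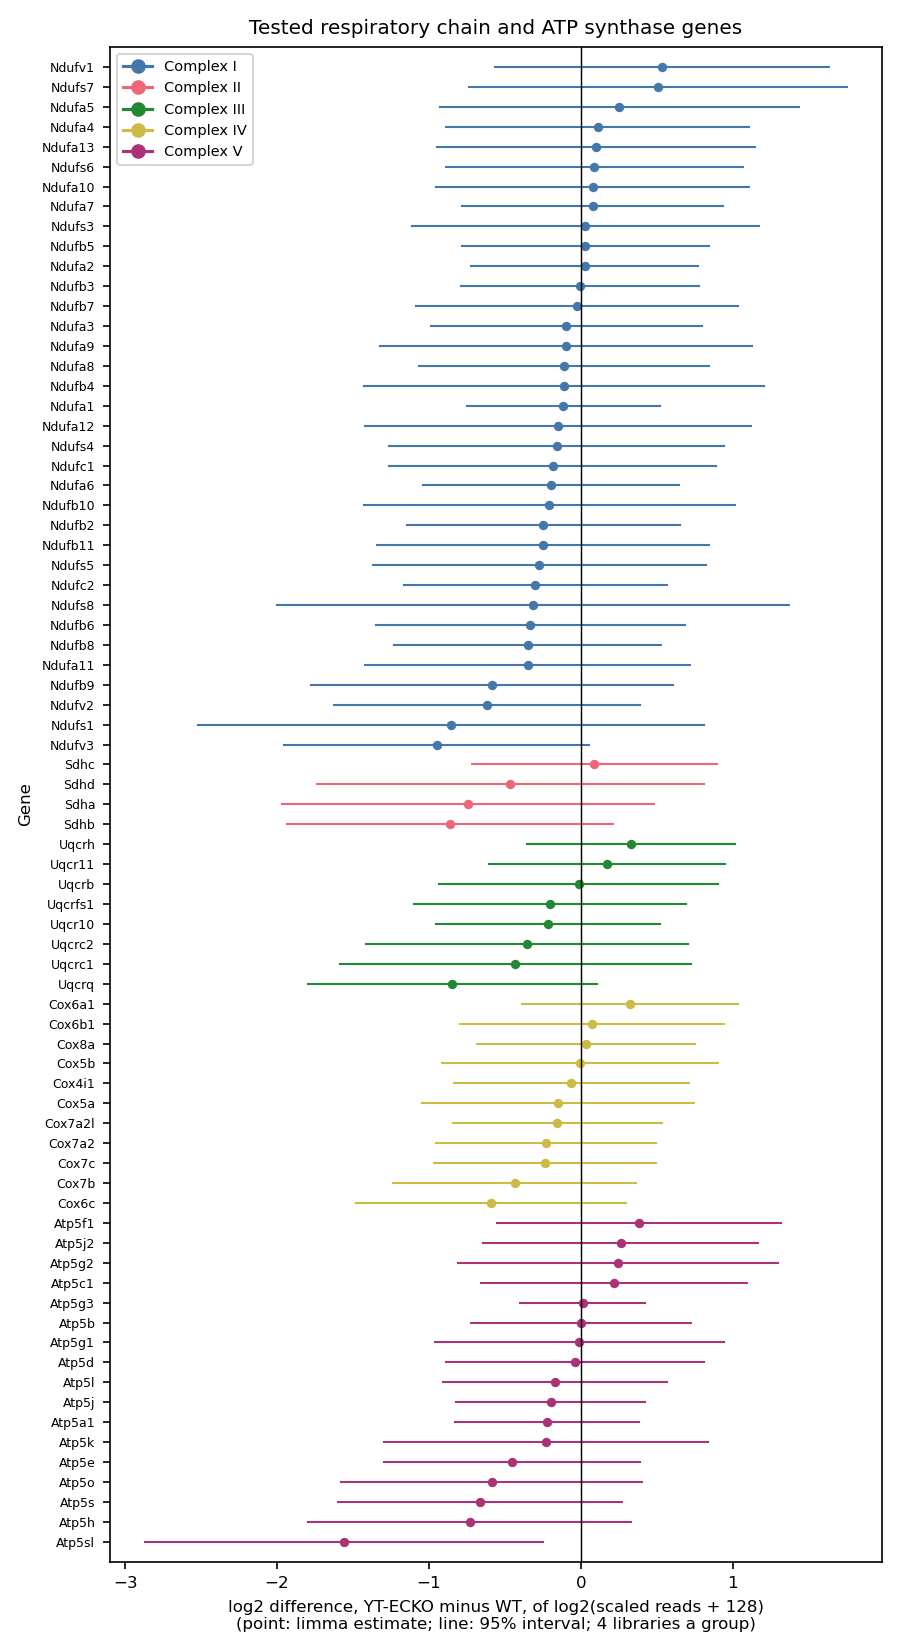
Log2 difference (YT-ECKO minus WT, on log2(scaled reads + 128)) of 75 tested genes, ordered by complex and estimate; points are limma estimates, lines 95% intervals, 4 libraries a group. Only the line of Atp5sl, the lowest row, does not cross 0, and 52 of the points lie to the left of 0.

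Complex I, the NADH dehydrogenase, had 36 tested members, of which 24 were estimated lower and 12 higher, with a median log2 difference of -0.11 and none called. Ndufv3, an accessory subunit next to the flavin-bearing tip, had 1328, 1402, 568 and 1628 scaled reads in WT 1 to 4 and 616, 520, 238 and 986 in YT-ECKO 1 to 4. WT 3 fell within the YT-ECKO range, and the difference of -0.95 ± 0.49 did not pass (limma adjusted p = 0.928). Ndufv2, an iron-sulfur subunit, had 786, 1464, 785 and 1090 in WT and 883, 406, 269 and 1227 in YT-ECKO, a log2 difference of -0.62 ± 0.49 (limma adjusted p = 0.986). Ndufs1, the largest subunit and also an iron-sulfur protein, had 349, 2596, 1278 and 370 scaled reads in WT and 0, 199, 1326 and 1273 in YT-ECKO. Its estimate of -0.85 ± 0.78 rested on libraries that differed severalfold within each group (limma adjusted p = 0.990), and without YT-ECKO 1 it was -0.16.

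Other complex I subunits were estimated higher. Ndufv1, which binds flavin and takes up NADH, had the highest estimate of all members, 0.53 ± 0.53, with 139 to 506 scaled reads in WT and 352 to 814 in YT-ECKO. Ndufs7, an iron-sulfur subunit beside the quinone site, was estimated at 0.51 ± 0.60, although its lowest library of all, at 10.4 scaled reads, was YT-ECKO 4. Ndufa1, a membrane-arm subunit encoded on X, had the highest level per length of the complex, 10924 scaled reads per kb. It had 4113, 5149, 3588 and 6191 scaled reads in WT and 5669, 3413, 3468 and 5025 in YT-ECKO, a log2 difference of -0.12 with an interval of -0.75 to 0.52.

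Complex II, succinate dehydrogenase, is shared with the tricarboxylic acid (TCA) cycle and is the only complex encoded wholly in the nucleus. Its 4 genes had the lowest median estimate, a log2 difference of -0.60, with 3 lower, 1 higher and none called. Without YT-ECKO 4 this median was -0.29, and that of complex V was lower, at -0.31. Sdhb, the iron-sulfur subunit, had 324, 1639, 683 and 1839 scaled reads in WT 1 to 4 and 534, 318, 549 and 456 in YT-ECKO 1 to 4. The 4 YT-ECKO libraries lay close together and the WT libraries were spread, with WT 1 inside the YT-ECKO range. The log2 difference was -0.86 ± 0.52 (limma adjusted p = 0.972, exact permutation p = 0.143).

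Sdha, the flavoprotein that oxidises succinate, had 1037, 933, 549 and 379 scaled reads in WT and 523, 141, 1331 and 82.8 in YT-ECKO, so that both the highest and the lowest library were YT-ECKO. Its log2 difference was -0.74 ± 0.59 (limma adjusted p = 0.990), and -0.35 without YT-ECKO 4. Sdhd, a membrane anchor, had 259, 609, 187 and 244 in WT and 15.5, 347, 591 and 60.9 in YT-ECKO (-0.46 ± 0.62, and -0.09 without YT-ECKO 1). Sdhc, the other anchor, was the most abundant of the 4 per length (795 scaled reads per kb) and the steadiest. It had 1277, 1984, 940 and 2040 scaled reads in WT and 1419, 2023, 1503 and 1488 in YT-ECKO, a log2 difference of 0.09 ± 0.39. YT-ECKO 2 was low for both catalytic subunits, and YT-ECKO 3 was the highest YT-ECKO library for both. They did not move together in every library: in WT 4 Sdhb was at its highest, 1839 scaled reads, and Sdha at its lowest WT value, 379. Sdhb was below its mean over all libraries, 793 scaled reads, in every YT-ECKO library, and also in WT 1 (324) and WT 3 (683).

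Complex III, the cytochrome bc1 complex, had 8 tested members, 6 lower and 2 higher, with a median log2 difference of -0.21. Uqcrq, a small subunit that binds near the ubiquinone-reduction site, had 893, 3339, 1256 and 2348 scaled reads in WT 1 to 4 and 606, 1144, 567 and 1667 in YT-ECKO 1 to 4. The ranges overlapped, and the difference of -0.84 ± 0.46 did not pass (limma adjusted p = 0.928). Uqcrh, the hinge protein by which cytochrome c docks, was the most abundant per length (7030 scaled reads per kb) and was estimated higher. It had 2738, 3055, 2074 and 3880 in WT and 4608, 4020, 2446 and 3864 in YT-ECKO, a log2 difference of 0.33 ± 0.33 (limma adjusted p = 0.990). Uqcrc1, a core protein, ranged from 459 to 1251 scaled reads in WT and from 129 to 1261 in YT-ECKO (-0.43 ± 0.56), so YT-ECKO held both extremes. Its estimate was -0.004 without YT-ECKO 2 and -0.92 by voom.

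Complex IV, cytochrome c oxidase, had 11 tested members, 8 lower and 3 higher, with a median log2 difference of -0.15. Its members were the most precisely measured, with 7 of 11 intervals within 1 log2 unit of 0. Cox6c, an accessory subunit, had 1380, 2528, 1193 and 2551 scaled reads in WT and 1387, 543, 1106 and 2061 in YT-ECKO, a log2 difference of -0.59 ± 0.43 (limma adjusted p = 0.981). Cox7b, encoded on X and needed for assembly of the complex, had 2178, 3406, 1740 and 4936 in WT and 2085, 2153, 1228 and 3238 in YT-ECKO (-0.44 ± 0.39). Cox6a1 was estimated in the other direction, with 1965, 2201, 1700 and 2447 in WT and 3036, 3332, 2072 and 2207 in YT-ECKO (0.32 ± 0.35, limma adjusted p = 0.990). In all 3 genes the groups overlapped.

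Complex V had 17 tested members, 11 lower and 6 higher, with a median log2 difference of -0.17. These counts include 2 genes outside the enzyme, Atp5s and Atp5sl, both estimated lower, with a median of -1.11. Within the enzyme the median was -0.04 for the 5 genes of the F1 head and 0.01 for the 3 c subunit genes. It was -0.39 for the 4 peripheral stalk genes and -0.17 for the 3 genes of subunits e, f and g. In the catalytic F1 head, Atp5a1 and Atp5b, the alpha and beta subunits that form ATP, were among the steadiest members. Atp5b had 2265, 1848, 1974 and 2171 scaled reads in WT and 2304, 1486, 2061 and 2544 in YT-ECKO, a log2 difference of 0.00 ± 0.35. Atp5a1 had means of 4828 ± 655 and 4135 ± 700 (SD, n = 4 each), a log2 difference of -0.22 ± 0.29. In the peripheral stalk, which holds the head still, Atp5h (subunit d) had 593, 718, 779 and 697 scaled reads in WT 1 to 4 and 219, 235, 349 and 872 in YT-ECKO 1 to 4. In 3 YT-ECKO libraries Atp5h was below every WT library, and in YT-ECKO 4 it was above every WT library (-0.73 ± 0.52, limma adjusted p = 0.981). Of the other stalk genes, Atp5f1 (subunit b) was estimated at 0.38 ± 0.45 and Atp5j (coupling factor 6) at -0.20 ± 0.30. Atp5o (the oligomycin sensitivity protein) was estimated at -0.59 ± 0.48. Its values were 629, 1276, 595 and 1706 scaled reads in WT and 965, 392, 552 and 591 in YT-ECKO. Atp5o was thus also below every WT library in YT-ECKO 2, 3 and 4, while YT-ECKO 1 was within the WT range.

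The lowest estimate of all members belonged to a gene that carries an Atp5 symbol but encodes no subunit of the enzyme. Atp5sl, now named Dmac2 and known as an assembly factor of complex I (chromosome 7, 25619414 to 25625551, plus strand), had 824, 2.91, 393 and 694 scaled reads in WT 1 to 4 and 3.13, 1.76, 196 and 0 in YT-ECKO 1 to 4. WT 2 was as low as the YT-ECKO libraries, and YT-ECKO 3 was above WT 2. The difference of -1.56 ± 0.64 had an unadjusted p of 0.0214 and a limma adjusted p of 0.823 (exact permutation p = 0.0857). Atp5s, its relative, was also taken as outside the enzyme. It had 165, 51.6, 122 and 201 in WT and 200 in YT-ECKO 4, and was listed at 0 in the other 3 YT-ECKO libraries (-0.66 ± 0.46, limma adjusted p = 0.981). Both genes were scarce, with 59.9 scaled reads per kb for Atp5s and 137 for Atp5sl, and on the scale used here a fold change of such genes is understated. The size of both estimates depended on the pseudocount and the tool: over the alternatives Atp5s ran from -5.55 (voom) to -0.21 (pseudocount of 512), and Atp5sl from -5.03 (voom) to -0.74 (pseudocount of 512).

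Summed over all members, the groups differed by less than the libraries within each. The 84 members summed to 12050, 14279, 10144 and 15631 CPM in WT 1 to 4 and to 13572, 10831, 10564 and 13828 CPM in YT-ECKO 1 to 4. The means were 13026 ± 2423 and 12198 ± 1740 CPM (SD, n = 4 each), a ratio of 0.936 with overlapping groups. The difference of means, -827 CPM, was 41.2 CPM without WT 4 and -2762 CPM with upper-quartile scaling. By complex, the ratio of YT-ECKO to WT means was 0.923 for complex I, 0.776 for complex II, 0.954 for complex III, 0.920 for complex IV and 0.960 for complex V, and the groups overlapped in each.

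The libraries with high sums were also those with high shares of Rn45s and of cytosolic ribosomal protein genes, and with low implied depth. WT 2, WT 4, YT-ECKO 1 and YT-ECKO 4 had the 4 highest member sums. They also had the 4 highest shares of Rn45s, the ribosomal RNA precursor, at 13.5%, 13.1%, 13.8% and 14.8% of scaled reads, against 8.39% to 11.8% in the rest. Cytosolic ribosomal protein genes summed to 28643, 35154, 26080 and 27374 CPM in these 4 libraries and to 13847 to 18356 CPM in the rest. WT 2, WT 4, YT-ECKO 1 and YT-ECKO 4 also had the lowest implied depths, at 7.465, 10.99, 6.752 and 9.483 M reads. The rest had 12 to 16.77 M reads. The part of depth, RNA quality or library composition in the member values was not tested. With the Rn45s share as a covariate, an alternative chosen after seeing the data, the median log2 difference was -0.16 and again 0 members were called. Mitochondrial ribosomal protein genes averaged 2142 CPM in WT and 2182 CPM in YT-ECKO and did not split the libraries in the same way, with 2118 CPM in WT 4 and 2124 CPM in WT 1.

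**Figure D3:**
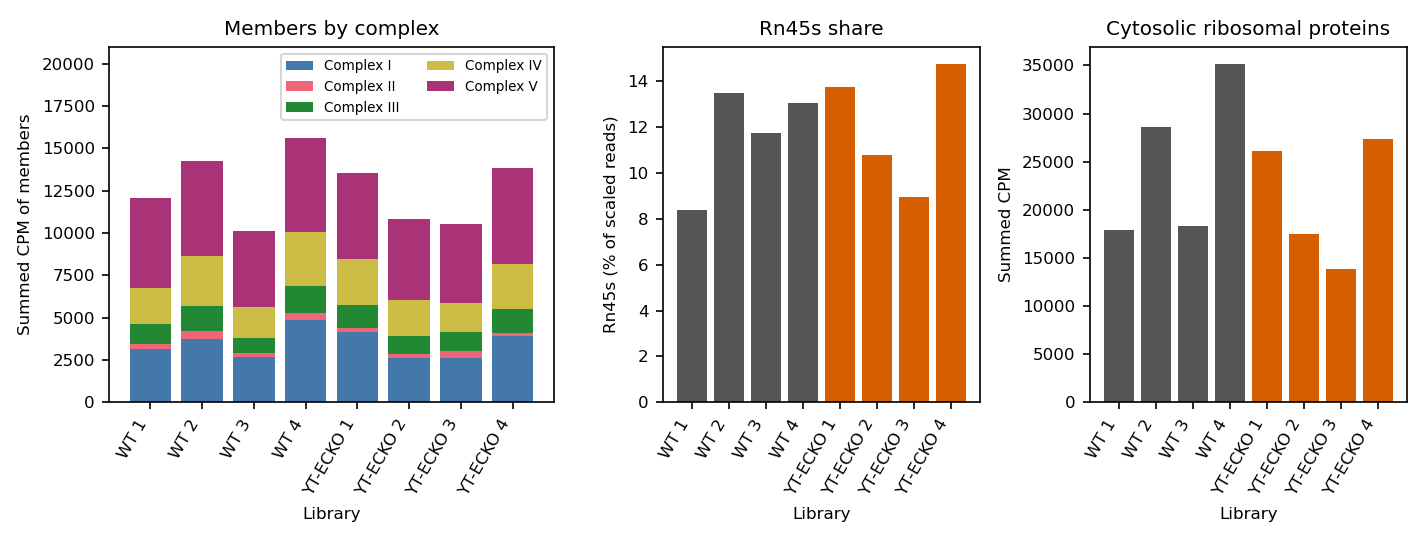
Per library, the summed CPM of the 84 genes stacked by complex (left), the share of Rn45s in percent of scaled reads (middle) and the summed CPM of cytosolic ribosomal protein genes (right); grey bars are WT, orange bars YT-ECKO. WT 2, WT 4, YT-ECKO 1 and YT-ECKO 4 are the 4 highest bars in all 3 panels.

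Members of different complexes tended to be high or low together in a library, irrespective of genotype. Of the 76 tested members, 32, 49, 20 and 62 were above their own mean in WT 1 to 4, and 47, 21, 24 and 54 in YT-ECKO 1 to 4. The share above the mean thus ran from 26.3% in WT 3 to 81.6% in WT 4, while over all tested genes it ran from 43.0% to 57.5%. After group means were removed, the mean correlation between pairs of members over the 8 libraries was 0.21, against 0.01 between pairs of all tested genes. It was 0.36 within complex IV, 0.25 within complex V, 0.23 within complex II, 0.18 within complex I and 0.14 within complex III. For comparison, it was 0.62 between cytosolic ribosomal protein genes and 0.05 between mitochondrial ribosomal protein genes. These pairs share libraries and their scaling, and the values are a description only.

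**Figure D4:**
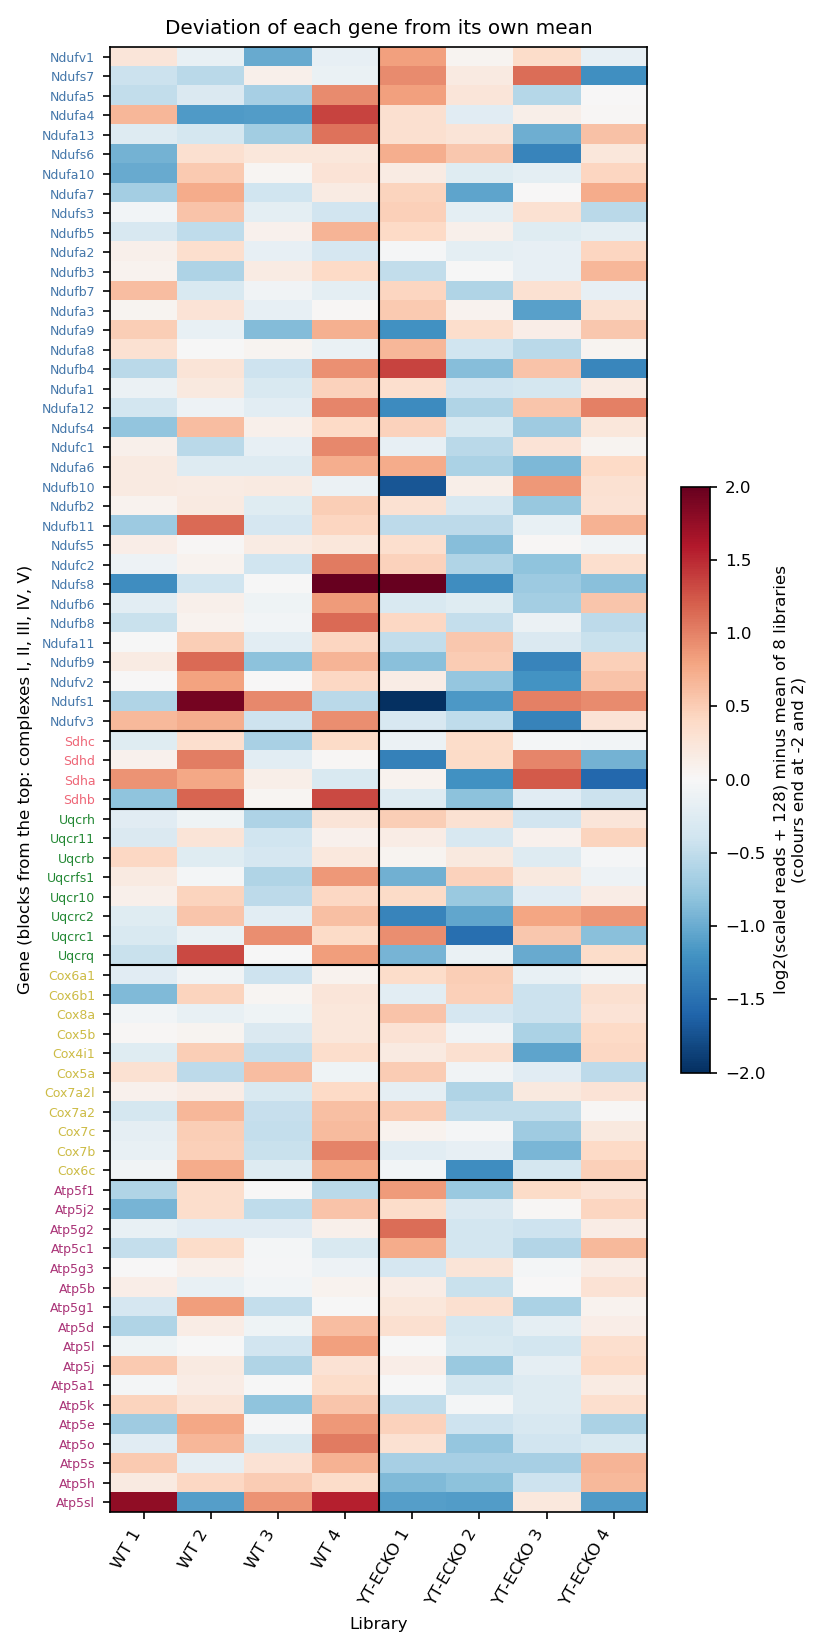
Deviation of 75 tested genes (rows, grouped by complex), each from its mean over the 8 libraries (columns), in log2(scaled reads + 128), blue below and red above the mean, with colours ending at -2 and 2. WT 4 is red for 61 of the 75 genes drawn and WT 3 for 20, and the vertical line between WT and YT-ECKO marks no change of colour across the set.

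The spread between replicate libraries followed the level of a gene. The within-group SD had a median of 42.5% of the mean over tested members and 70.6% over all tested genes. For genes averaging 1000 scaled reads or more it was 34.4% for the 39 members and 37.2% for the 1935 genes of that level. For the 15 members with a mean under 500 it was 70.7%. Ndufs8, an iron-sulfur subunit of complex I, had the widest spread, 167% of its mean, because WT 4 had 1346 and YT-ECKO 1 had 1233 scaled reads while the other libraries had 0 to 171. Ndufb4, an accessory subunit, ranged from 0 in YT-ECKO 4 to 678 in YT-ECKO 1. For such members the absence of a call says little.

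**Figure D5:**
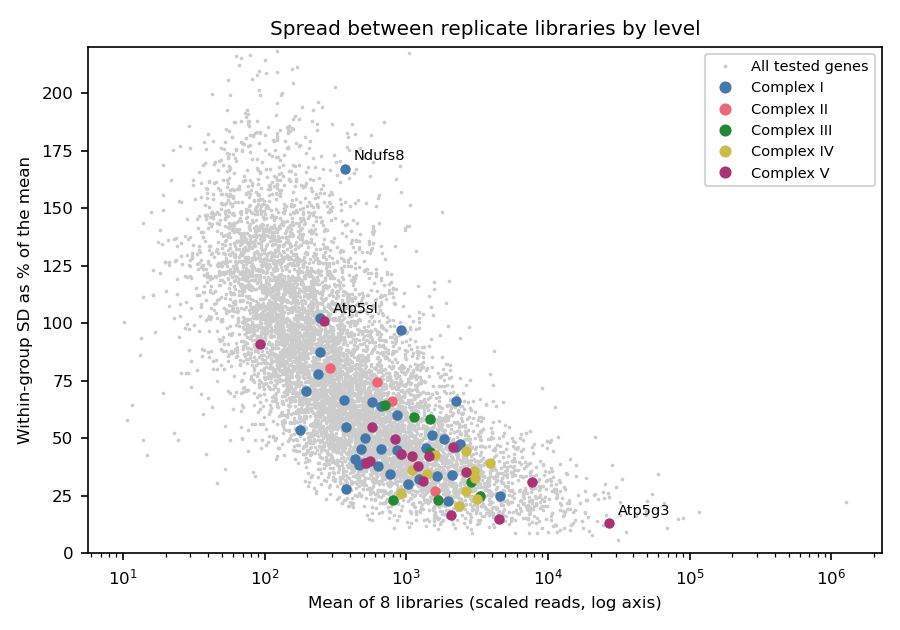
Within-group SD as a percentage of the mean against mean level over 8 libraries (scaled reads, log axis), for all tested genes (grey; values above 220% lie outside the axis) and for members coloured by complex. Members lie inside the cloud of all genes, from Atp5g3 at 13.1% to Ndufs8 at 167%.

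Nuclear respiratory factor 1 (NRF1) is known as an activator of many respiratory chain genes, and its binding letters were looked for in the 250 bases before the RefSeq gene start (GRCm38.p6). The letters searched, GCGCA followed by any base and GCGC, on either strand, were found for 13 of the 67 members matched to a window (19.4%), for 10.6% of tested genes and in 3.74% of all 32851 windows. Matches to different motifs could overlap, and all searches covered both strands. The ETS letters CCGGAAG, bound by the GABP factor, were found for 17.9% of members and 17.4% of tested genes. The YY1 letters AAGATGGC were found for 2.99% and 2.61%, and the TATA letters TATAAA for 8.96% and 7.75%. The windows of members had a median GC content of 56.0%, against 60.4% for tested genes and 52.4% for all windows. To show what such a match looks like in members of 3 complexes, 5 sites are given with 30 bases each on the strand of the gene, the match in capitals; the first 4 are the matched members with the highest level per kb, and the last is the c subunit gene described above.
Cox6a1: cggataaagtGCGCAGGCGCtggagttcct
Ndufs6: ccgccgactgctgtGCGCCTGCGCcggcac
Atp5k: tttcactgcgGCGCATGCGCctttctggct
Atp5c1: cgcctgagctcccGCGCACGCGCactgagt
Atp5g2: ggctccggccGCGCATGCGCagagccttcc
These lie at chr5:115349056-115349085, chr13:73328483-73328512, chr5:108434430-108434459, chr2:10080433-10080462 and chr15:102671070-102671099, all on the minus strand. The starts are those of RefSeq: by the gene spans of GENCODE, the sites of Ndufs6, Atp5c1 and Atp5g2 lie inside the gene, that of Atp5k crosses its start, and only that of Cox6a1, of these 5, lies wholly before it. A match is a description of the letters and not a bound site. The Nrf1 gene itself had 300, 519, 286 and 455 scaled reads in WT 1 to 4 and 9.29, 5.31, 1296 and 29.9 in YT-ECKO 1 to 4. Its groups overlapped through YT-ECKO 3 alone, and its log2 difference of -1.01 ± 0.68 did not pass (limma adjusted p = 0.980).

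In none of the lists of related mitochondrial genes was a gene called by limma. At an unadjusted p under 0.05, limma counted 2 of 71 mitochondrial ribosomal protein genes and 1 of 83 cytosolic ones, and 0 genes in each of the other 4 lists, against 5.47% of all tested genes. Of 33 tested assembly factors, 17 were estimated higher and 16 lower, with a median log2 difference of 0.01. Cox11, which delivers copper to complex IV, had 80.7, 50.1, 95.3 and 14.9 scaled reads in WT and was listed at 0 in all 4 YT-ECKO libraries. Its groups did not overlap, which held for 1 of the 33 tested assembly factors, for 3 of 71 mitochondrial ribosomal protein genes and for 3.4% of all tested genes, and its limma adjusted p was 0.928. Cox11 passed the filter only through the WT libraries. With YT-ECKO at 0, its lack of overlap was thus set by the filter and is no support for a difference. Ndufaf7, an assembly factor that methylates a complex I subunit, had a log2 difference of -0.99 ± 0.59 (limma adjusted p = 0.961). Nubpl, which delivers iron-sulfur clusters to complex I, had 0, 195, 0 and 5.97 scaled reads in WT and 282, 123, 20.7 and 386 in YT-ECKO. Every YT-ECKO library but only WT 2 reached the 10 scaled reads of the filter. The groups overlapped through WT 2, and the difference of 0.87 ± 0.52 did not pass (limma adjusted p = 0.963).

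Among 6 other chain components, 3 were higher and 3 lower, with a median of -0.07. Cyc1, the cytochrome c1 of complex III that the symbol rule leaves out, had a log2 difference of -0.62 ± 0.57. Of 15 regulators of mitochondrial gene expression listed, 9 were tested, with 3 higher and 6 lower and a median of -0.28. Yy1, a transcription factor, had 805, 360, 620 and 439 scaled reads in WT and 668, 1133, 1192 and 1451 in YT-ECKO. Only YT-ECKO 1 fell within the WT range, and the difference of 0.86 ± 0.46 did not pass (limma adjusted p = 0.928). Of 14 TCA cycle genes, 7 were higher and 7 lower, with a median of -0.05; Sucla2, a subunit of succinyl-CoA ligase, had the smallest p (-0.996 ± 0.58, limma adjusted p = 0.960). Of 71 mitochondrial ribosomal protein genes, 25 were higher and 46 lower, with a median of -0.12, and of 83 cytosolic ribosomal protein genes, 16 were higher and 67 lower, with a median of -0.20.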

How the data were processed

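RNA of sorted brain endothelial cells was measured in 8 libraries, 4 WT and 4 YT-ECKO, grouped by the genotype in the labels. Trizol extraction and a Lexogen Quant-Seq kit were used, per the labels' protocols. The tools were Bowtie2 and edgeR and the build mm10, per the submitters' processing notes. Their versions, the counting and the strand setting are not stated in these sources. The authors deposited 1 log2 value per gene and library, with no value below 0. From the values these were read as log2 of scaled read counts, so the count test planned for raw counts was not used, and they were returned to the linear scale with 0 kept at 0.

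Genes reaching 10 scaled reads in 4 or more libraries were tested with limma 3.58.1 (R 4.3.3; trended, robust) on log2(scaled reads + 128), without covariates, on 4 against 4 libraries, with Benjamini-Hochberg adjustment over all tested genes. The script was tested on simulated data. Sums are CPM of scaled reads. Exact permutation tests of single genes were two-sided. Members, gene lists, tests and alternatives were chosen with earlier results of these data known. Genes named with full statistics were, per complex, the 3 with the smallest limma p and the one with the highest level per kb, all Sdh genes and the paralogue sets; of each other list, up to 3 with the smallest p. Ndufv1, Ndufs7, Ndufs8, Ndufb4, Atp5a1, Atp5b, Atp5f1, Atp5j and Atp5o were named after their values were seen. In the plots by gene, 1 tested member is left out and not reported here.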

Additional observations from a re-analysis of the deposited data

Results flagged for a closer look

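In 3 of the 52 sets of 4 libraries checked (each gene named with full statistics, in each group), 1 library stood apart from the other 3 by more than Dixon's 95% limit; chance flags about 1 in 20 such sets. For Atp5sl the library was YT-ECKO 3, with 196.4 scaled reads against 0 to 3.13 in the other YT-ECKO libraries. For Atp5s it was YT-ECKO 4, with 199.9 scaled reads against 0 in the other YT-ECKO libraries. For Sdhc it was YT-ECKO 2, with 2023 scaled reads against 1419 to 1503 in the other YT-ECKO libraries.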

How the results depend on the processing

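Under 20 alternatives (pseudocounts, filters, scalings, voom, a replicate block, the Rn45s share and each library left out), 0 members were called, with a lowest adjusted p of 0.642. The median log2 difference of members ranged from -0.32 to -0.02. By complex it ranged from -0.29 to 0.0042 for I, -1.07 to -0.27 for II, -0.40 to -0.0025 for III, -0.34 to -0.04 for IV and -0.37 to -0.02 for V. The difference in summed CPM ranged from -2762 (upper-quartile scaling) to 41.2 (without WT 4), with -827 reported. The count of members without overlap, 0 with all libraries, was 0 to 4 with a library left out. The 4, without YT-ECKO 4, were Atp5h, Atp5s, Ndufb6 and Ndufs7, where 7.29% of all genes had none. Of these, Atp5s passed the filter there only through its WT libraries, so its lack of overlap was set by the filter. Estimates near 0 changed sign with the setting: Atp5g1 ran from -0.19 to 0.27, Cox4i1 from -0.26 to 0.28, Ndufa4 from -0.25 to 0.58, Sdhc from -0.11 to 0.23 and Atp5g3 from -0.20 (upper quartile) to 0.13, and those of Atp5g2, Cox6b1, Cox7a2l, Cox8a and Ndufa1 crossed 0 too. Other named members kept their sign but not their size: with a library left out, Ndufs1 ran from -1.33 to -0.16, Sdha from -1.28 to -0.35, Sdhb from -1.27 to -0.57, Sdhd from -0.87 to -0.09, Uqcrc1 from -0.82 to -0.004, Cox6c from -0.85 to -0.28, Cox7b from -0.66 to -0.18, Ndufv2 from -0.91 to -0.32, Uqcrq from -1.13 to -0.55 and Uqcrh from 0.18 to 0.52. Atp5sl passed the filter in 16 of the 20.

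Replicate numbers did not pair the libraries: same-numbered libraries correlated at -0.03, -0.04, 0.07 and 0.08. With the replicate block, 0 members were called and the median was -0.15, while calls over all genes were 5 in place of 3. Calls over all genes ranged from 0 to 6 over the alternatives.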

Other observations

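Ndufa4l2 was looked at beside the mural markers after its values were seen. It was above 0 in WT 2 (4.36 scaled reads) and YT-ECKO 4 (188), and Higd1b, a mural marker, was above 0 in the same libraries, at 106 and 458 scaled reads, and listed at 0 in the others. The other mural markers did not follow this order: the sum of all 10 was 177 CPM in WT 1, 140 in WT 2 and 78.6 in YT-ECKO 4, and Pdgfrb was listed at 0 in YT-ECKO 4. The part of mural cells in the Ndufa4l2 value was not tested.

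Ppargc1a, Tfam and Cycs were also read out after their values were known. Ppargc1a, a coactivator of mitochondrial gene expression, was listed at 0 in all 8 libraries. Tfam, the packaging factor of mitochondrial DNA, had 220, 169, 247 and 234 scaled reads in WT 1 to 4 and 0, 24.8, 114 and 275 in YT-ECKO 1 to 4, so that YT-ECKO held both the lowest and the highest library. Cycs, the cytochrome c carrier, had 154 to 347 in WT and 33.9 to 306 in YT-ECKO.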
